A study of Mus musculus with 18 samples.

Results

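The proteasome subunit genes were followed in mouse fibroblasts that had been moved from culture to the space under the kidney capsule. Members were all protein-coding genes whose symbol is Psma, Psmb, Psmc, Psmd or Psme followed by a number. This rule gave 43 of the 38924 genes in the count table, and it used no measured value. By role they were 8 genes of the 20S alpha ring, 4 structural and 3 catalytic genes of the constitutive beta ring, 3 catalytic genes of the immunoproteasome (Psmb8, Psmb9 and Psmb10), the thymoproteasome gene Psmb11, 6 ATPases of the 19S base, 3 further 19S base subunits, 8 lid subunits, 3 assembly chaperones of the 19S base and 4 activator genes (Psme1 to Psme4). All 43 passed the filter on low counts and were tested.

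RNA was sequenced from primary fibroblasts of heart (HF), kidney (KF) and tail (TF), taken from Rosa mT/mG males 10 weeks old on a C57BL/6 background and grown for 10 days. Cells were then either absorbed on gelatin foam and placed for 3 days under the renal capsule of syngeneic C57BL6/J mice aged 10 to 11 weeks (HFs, KFs and TFs), with 400000 to 500000 cells a kidney, or put back in culture for 3 more days (the controls HFc, KFc and TFc). There were 3 libraries in every group. Donor cells carry a membrane TdTomato from the Rosa26 locus, expressed in all their cell types, and transplanted cells were recovered as live CD45-negative, TdTomato-positive cells, so cultured and transplanted cells differ in the sort as well as in the site. The methods do not name the library kit of the cultured controls. Any difference in kit could not be told apart from transplantation. Nothing in the labels says that replicates came from separate cultures or hosts, and p-values then measure the spread between these libraries only.

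The proteasome degrades proteins marked with ubiquitin. Its 20S core is a barrel of alpha and beta rings, in which Psmb5, Psmb6 and Psmb7 encode the subunits that cut peptide bonds, and the 19S particle at its ends binds, unfolds and feeds in the substrate. Interferon-gamma is known to induce Psmb8, Psmb9 and Psmb10, which replace the constitutive catalytic subunits in newly built cores, together with the activator PA28 (Psme1 and Psme2) and the genes that load peptides on MHC class I. When proteasome activity falls short, the factor encoded by Nfe2l1 is known to raise the constitutive subunit genes as a group.

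Promoter sequence is given for 5 members on which the results turn, 3 genes of the interferon-inducible set and 2 constitutive catalytic genes, because in HFs and TFs, as named below, the first 3 rose and the other 2 fell. Each line holds 280 bases from RefSeq (GRCm38.p6), 5′ to 3′ on the gene's strand, with the last 30 bases starting at the annotated start site. Capitals mark a match, on either strand, to the core of an interferon-stimulated response element (TTTC, 2 bases of any kind and TTTC again) or to the core of an antioxidant response element (TGACNNNGC).
Psmb8: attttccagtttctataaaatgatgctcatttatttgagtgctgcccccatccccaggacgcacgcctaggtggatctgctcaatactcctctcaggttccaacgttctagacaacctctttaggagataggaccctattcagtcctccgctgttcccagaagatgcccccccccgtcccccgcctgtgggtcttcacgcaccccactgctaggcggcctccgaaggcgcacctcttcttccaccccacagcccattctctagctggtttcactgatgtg
Psmb9: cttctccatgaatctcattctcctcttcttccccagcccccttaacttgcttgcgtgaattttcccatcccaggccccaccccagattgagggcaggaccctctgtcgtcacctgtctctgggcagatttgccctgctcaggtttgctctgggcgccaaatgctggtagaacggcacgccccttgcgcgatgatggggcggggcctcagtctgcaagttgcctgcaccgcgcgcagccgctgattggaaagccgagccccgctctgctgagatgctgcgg
Psme1: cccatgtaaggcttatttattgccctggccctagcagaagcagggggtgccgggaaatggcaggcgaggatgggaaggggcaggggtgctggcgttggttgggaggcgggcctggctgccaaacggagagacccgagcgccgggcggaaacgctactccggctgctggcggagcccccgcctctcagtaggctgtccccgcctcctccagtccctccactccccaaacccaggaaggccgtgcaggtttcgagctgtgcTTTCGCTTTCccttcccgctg
Psmb5: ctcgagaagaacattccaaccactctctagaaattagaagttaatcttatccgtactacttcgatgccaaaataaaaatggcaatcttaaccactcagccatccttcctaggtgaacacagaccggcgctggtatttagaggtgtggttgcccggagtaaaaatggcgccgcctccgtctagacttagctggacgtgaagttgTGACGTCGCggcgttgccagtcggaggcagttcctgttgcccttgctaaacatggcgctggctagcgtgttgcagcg
Psmb6: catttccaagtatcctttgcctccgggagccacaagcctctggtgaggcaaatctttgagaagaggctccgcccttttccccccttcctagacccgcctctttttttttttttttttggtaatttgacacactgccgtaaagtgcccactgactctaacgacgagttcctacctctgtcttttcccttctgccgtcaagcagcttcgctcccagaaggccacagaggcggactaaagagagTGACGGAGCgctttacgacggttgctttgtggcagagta
They lie at chr17:34197945-34198224 (plus strand), chr17:34187301-34187580 (minus strand), chr14:55578244-55578523 (plus strand), chr14:54617966-54618245 (minus strand) and chr11:70525107-70525386 (plus strand). Psme1 holds an interferon-stimulated response element core, Psmb5 and Psmb6 each hold an antioxidant response element core, and these letters do not occur in the windows of Psmb8 and Psmb9. Those 2 windows follow the RefSeq start sites and lie inside the genes as annotated in GENCODE M21. There the 5′ ends are at 17:34197721 (Psmb8) and 17:34187764 (Psmb9). Bases upstream of these ends lie outside the windows, so the absence of a core covers the printed bases only. Over the full 300-base windows, RefSeq promoters were found for 36 of the 43 genes, 39 windows in all. The interferon-stimulated response element core stood in 4 of these 39 windows and in 3.44% of all 32851 promoters, the antioxidant response element core in 6 of them and 12.4%, and the CCAAT box in 14 of them and 37.4%. Besides Psme1, the interferon-stimulated response element core stood in the windows of Psmb3, Psmd4 and Psmd9, which were lower in HFs. The antioxidant response element core also stood in those of Psmc6, Psmd9 and Psmd12, lower in HFs, and of Psme4, not called there. The window of Psmb10, which rose in all 3 cell types, held neither core. Matches to different motifs may overlap, and a match describes these letters only.

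Library totals lay between 17927838 and 32245168 counts. KFs replicate 3 stood apart from the other libraries of its group: its log2 CPM correlated at 0.917 and 0.918 with KFs replicates 1 and 2, which correlated at 0.973 with each other. Its library name, Kidney-Fibros, lacks the sample code that the names of the other 17 carry, but the sample description assigns it to this replicate. Although all donors are described as male, Xist was at 1492 CPM in this library and at most 0.404 CPM in the other 17, and 4 Y-linked genes summed to 0.722 CPM against 175 to 229.9 CPM. Leaving it out changed the call of 3 of the 43 genes in KFs: Psme1 and Psme4 were then not called, and Psmd11 was lower (-0.38). For genes named in comparisons that use it, the value without it is given beside the value with it. Kidney tubule RNA was also detected: 10 proximal tubule markers summed to 119.8 to 1234 CPM in HFs, 61.5 to 129.7 CPM in KFs and 139.0 to 326.2 CPM in TFs, against 22.0 to 24.6, 103.0 to 111.5 and 18.8 to 21.6 CPM in HFc, KFc and TFc. HFs replicate 2 was the library at 1234 CPM, and the part of these markers in the results was not tested. The 10 genes with the most counts took 29.3 to 29.7% of all counts in HFs and 15.8 to 15.97% in HFc, and the collagen genes Col1a1, Col1a2 and Col3a1 took 6.40 to 10.9% and 1.34 to 1.44%. The top 10 took 20.0 to 24.9% in KFs and 16.8 to 17.4% in KFc, and 19.2 to 20.7% in TFs and 17.6 to 18.2% in TFc. The collagens took 2.01 to 8.97% in KFs, lowest in KFs replicate 3, and 1.18 to 1.25% in KFc. In TFs they took 3.09 to 3.72% and in TFc 1.28 to 1.30%.

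To see what transplantation did to the proteasome as a whole, each transplanted group was compared with its cultured control. In heart fibroblasts the constitutive particle fell almost as a block, while Psmb8, Psmb9, Psmb10 and Psme1 rose. In HFs, 35 of the 43 genes were lower than in HFc and 5 were higher, where 28.4% of all 16577 genes tested were called lower and 28.0% higher (edgeR quasi-likelihood test, Benjamini-Hochberg adjusted p under 0.05). In KFs, 14 were lower and 6 higher, with 22.7% and 26.1% of all genes called. In TFs, 16 were lower and 7 higher, with 20.2% and 18.6% of all genes called. The median log2 fold change of the 43 genes was -0.80 in HFs, -0.16 in KFs (-0.12 without KFs replicate 3) and -0.26 in TFs, against 0.05, 0.09 and 0.00 over all genes. With an additional limit of 1 on the log2 change, 10 were lower and 4 higher in HFs, where 9.33% and 18.3% of all genes were called. With that limit none were lower and 3 higher in KFs (7.99% and 14.7% of all genes), and none lower and 5 higher in TFs (5.53% and 11.0%).

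**Figure D1:**
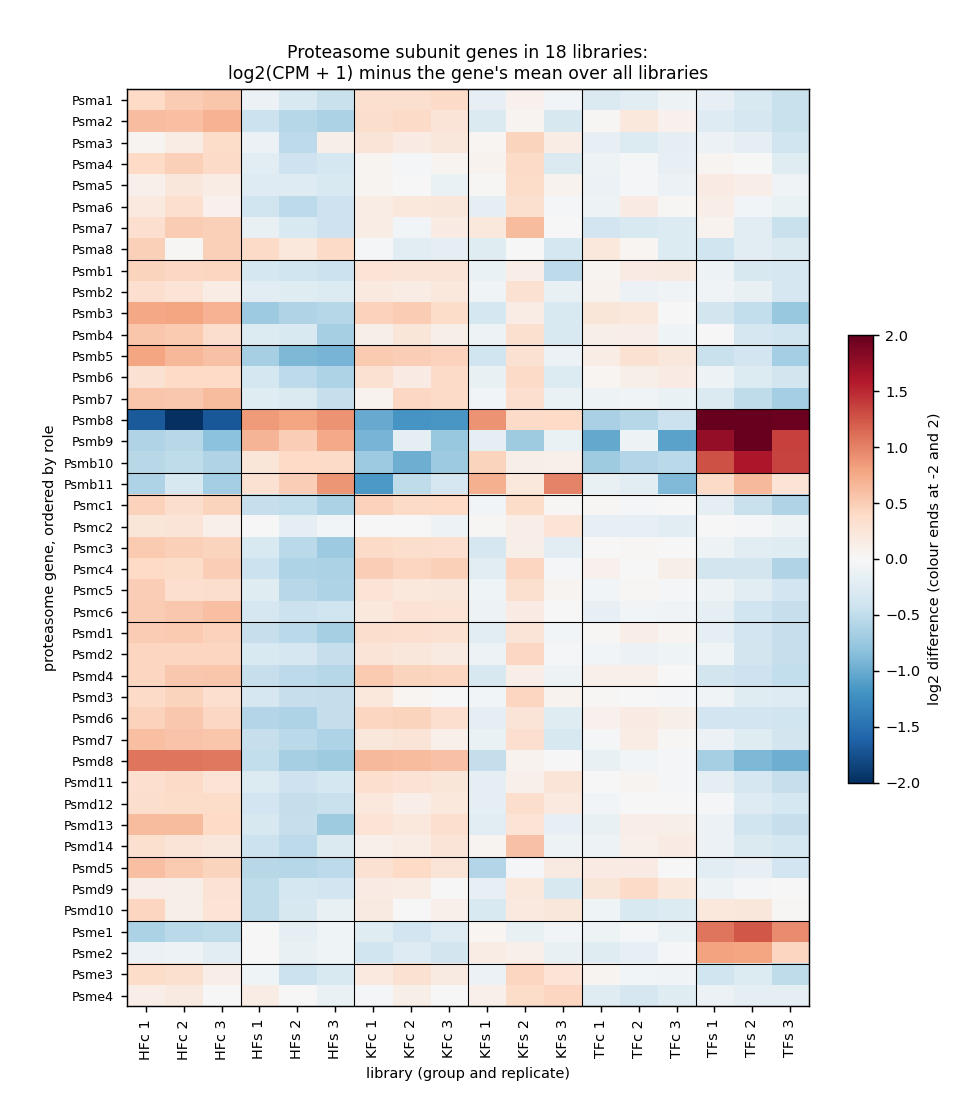
Heatmap of the 43 proteasome genes (rows, ordered by role and separated by lines) in the 18 libraries (columns, 3 a group), with colour giving log2(CPM + 1) minus the mean of the gene over all libraries, ending at -2 and 2. Most constitutive subunits are red in HFc and blue in HFs, whereas Psmb8 is dark blue in HFc and darkest red in the 3 TFs libraries.

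The 14 genes lower in KFs depended on single libraries: they were 9 without KFs replicate 1, 25 without KFs replicate 2 and 15 without KFs replicate 3. Likewise the 16 lower in TFs were 8 without TFs replicate 3, whereas the 35 lower in HFs stayed at 33 to 35 whichever of the 18 libraries was left out. A fit of the KFs and KFc libraries alone called 6 lower and 3 higher. The same 11 genes were lower in all 3 transplant comparisons (Psma2, Psmb1, Psmb3, Psmb5, Psmc1, Psmc4, Psmc6, Psmd1, Psmd4, Psmd6 and Psmd8), 16 were called lower in HFs alone, and 4 were higher in all 3 (Psmb8, Psmb10, Psmb11 and Psme1). These were 25.6%, 37.2% and 9.30% of the 43 genes, where 10.9%, 10.1% and 10.0% of all genes tested showed the same pattern, so the share higher in all 3 was close to that of all genes. Psme1 left the 4 without KFs replicate 3. Summed over the 20S and 19S subunits, 32 genes in all, the level was 2733 to 2779 CPM in HFc and 1409 to 1553 CPM in HFs. The sums were 2375 to 2442 CPM in KFc against 1795 to 2426 CPM in KFs, and 1925 to 1998 CPM in TFc and 1474 to 1776 CPM in TFs. Heart cells thus went from the highest sum in culture to a sum that overlapped only the lower end of TFs, and KFs replicate 2 was the only transplanted library to reach its cultured controls. In bulk RNA, fewer cells of a kind and less RNA per cell cannot be told apart.

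**Figure D2:**
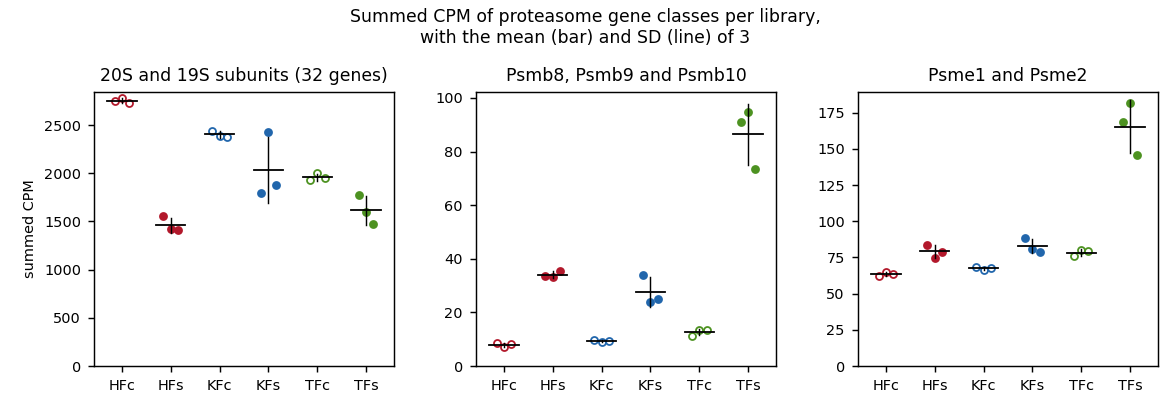
Summed CPM per library (y axis) in the 6 groups (x axis) for the 32 subunits of the 20S and 19S particles, for Psmb8, Psmb9 and Psmb10, and for Psme1 and Psme2. Points are libraries (open, cultured; filled, transplanted), bars the mean and lines the SD of 3. The 20S and 19S sum drops from 2733 to 2779 CPM in HFc to 1409 to 1553 CPM in HFs, while the other 2 sums are highest in TFs.

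Of the catalytic subunits of the immunoproteasome, Psmb8 and Psmb10 rose in all 3 cell types and Psmb9 in HFs and TFs. Psmb8, whose product takes the place of that of Psmb5, was at 2.77, 1.08 and 2.75 CPM in HFc and 20.9, 19.9 and 21.5 CPM in HFs. It was at 5.03, 4.36 and 4.39 CPM in KFc against 21.5, 14.7 and 14.95 CPM in KFs, and at 6.71, 7.10 and 7.98 CPM in TFc and 63.04, 59.2 and 46.1 CPM in TFs. No transplanted library overlapped its cultured controls, and the 3 TFs libraries were above all others. The log2 fold change of Psmb8 was 3.25 ± 0.26 (SE, edgeR adjusted p = 1.04e-07) in HFs, 1.89 ± 0.24 (adjusted p = 1.35e-05) in KFs and 2.95 ± 0.24 (adjusted p = 3.8e-07) in TFs, that is 9.54-fold, 3.71-fold and 7.73-fold. Without KFs replicate 3 the change in KFs was 1.93. The gene is at 17:34197721-34201454 in GRCm38 (GENCODE M21) and Psmb9 lies near it, at 17:34181987-34187764.

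Psmb10 is the counterpart of Psmb7. Its level was 5.14, 5.35 and 4.91 CPM in HFc and 9.62, 10.9 and 10.8 CPM in HFs. In kidney cells it was 4.44, 3.59 and 4.45 CPM in KFc against 11.2, 8.78 and 8.66 CPM in KFs, and in tail cells 4.48, 5.02 and 5.17 CPM in TFc and 20.8, 26.5 and 21.9 CPM in TFs. The 3 cultured groups lay within 1 range, from 3.59 to 5.35 CPM, and every transplanted library was above it. The log2 fold change was 1.02 ± 0.14 in HFs, 1.198 ± 0.14 in KFs (1.22 without KFs replicate 3) and 2.24 ± 0.14 in TFs (SE, edgeR adjusted p = 2.06e-05, 6.8e-06 and 3.87e-08).

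Psmb9, the counterpart of Psmb6, was the scarcest of the 3, with 4 to 34 counts in the cultured libraries. It was at 0.619, 0.677 and 0.393 CPM in HFc and 2.95, 2.47 and 3.15 CPM in HFs, and at 0.208, 1.29 and 0.175 CPM in TFc and 7.33, 8.95 and 5.39 CPM in TFs. KFc held 0.298, 1.19 and 0.465 CPM and KFs 1.17, 0.513 and 1.24 CPM, and these overlapped. Psmb9 rose in HFs (log2 fold change 2.32 ± 0.63, SE, edgeR adjusted p = 0.00574) and in TFs (3.69 ± 0.65, adjusted p = 0.000409), and in KFs the change was 0.57 ± 0.63 (adjusted p = 0.474, and 0.31 without KFs replicate 3). Psmb9 and Tap1, which encodes a subunit of the peptide transporter, share 212 exon bases on opposite strands, and Psmb8 shares 498 with an antisense gene, but the study's methods describe stranded reads and the counting kept strand.

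**Figure D3:**
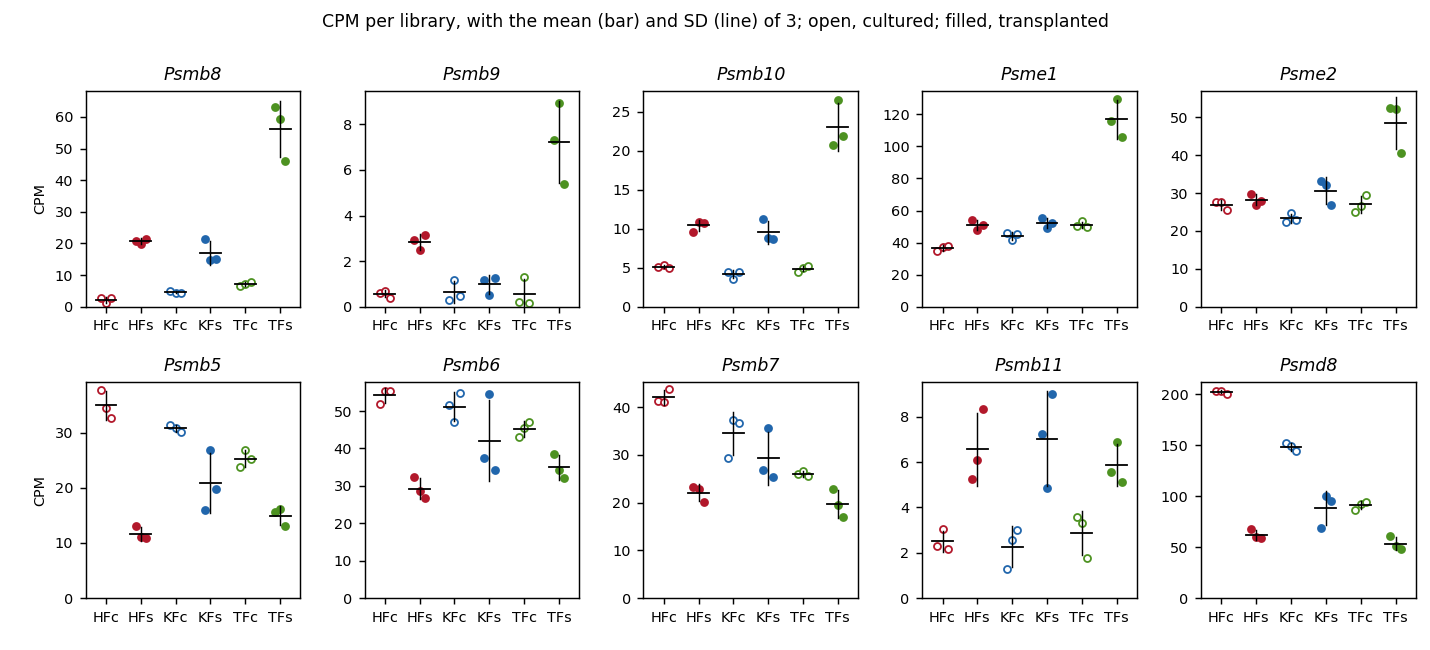
CPM per library (y axis, from 0) in the 6 groups (x axis) for 10 proteasome genes. Points are libraries (open, cultured; filled, transplanted), bars the mean and lines the SD of 3. Psmb8, Psmb9, Psmb10, Psme1 and Psme2 are highest in TFs, while Psmb5 falls to 10.8 to 13.1 CPM and Psmd8 to 58.7 to 68.0 CPM in HFs.

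PA28 binds the ends of the 20S core and opens them without ATP. Psme1, its alpha subunit, was at 34.6, 37.2 and 37.9 CPM in HFc and 53.9, 47.8 and 51.1 CPM in HFs. It was at 45.9, 41.4 and 45.1 CPM in KFc against 55.5, 49.04 and 52.2 CPM in KFs, and at 50.6, 53.3 and 49.7 CPM in TFc and 116, 129.8 and 106 CPM in TFs. The groups did not overlap in any pair, and the TFs libraries were above all others. The rise was 1.19 ± 0.08 on the log2 scale in TFs (SE, edgeR adjusted p = 8.64e-08), 0.48 ± 0.08 in HFs (adjusted p = 0.000194) and 0.24 ± 0.08 in KFs (adjusted p = 0.0246). The call in KFs was lost without any one of 5 libraries (KFc replicate 2, KFs replicates 1 and 3, TFc replicates 2 and 3), with changes of 0.20 in each, and without KFs replicate 3 the adjusted p was 0.0746.

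Psme2, the beta subunit of PA28, was at 27.5, 27.7 and 25.5 CPM in HFc and 29.8, 26.9 and 27.98 CPM in HFs, which overlapped. Its levels were 22.4, 24.7 and 22.8 CPM in KFc against 33.1, 32.1 and 26.7 CPM in KFs, and 25.05, 26.6 and 29.5 CPM in TFc and 52.6, 52.2 and 40.5 CPM in TFs. It rose in KFs (0.40 ± 0.11, SE, edgeR adjusted p = 0.00769, and 0.44 without KFs replicate 3) and TFs (0.84 ± 0.11, adjusted p = 3.15e-05), with 0.07 ± 0.11 in HFs (adjusted p = 0.618). The assignment of its reads is uncertain, since Psme2 shares 51.7% of its 75-base windows with Psme2b, whose counts came to 52.9 to 54.1% of those of Psme2 in HFc, 5.02 to 20.7% in HFs and 0.348 to 13.8% in the other groups. With the counts of both genes added the change was -0.37 in HFs (adjusted p = 0.00680), 0.34 in KFs and 0.84 in TFs.

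Of the remaining activators and alternative subunits, Psmb11 encodes the catalytic subunit of the thymoproteasome, known from the cortical epithelium of the thymus, and was low in all groups. It was at 2.30, 3.05 and 2.16 CPM in HFc and 5.23, 6.08 and 8.35 CPM in HFs, 1.27, 2.55 and 2.99 CPM in KFc against 7.24, 4.84 and 9.02 CPM in KFs, and 3.56, 3.30 and 1.75 CPM in TFc and 5.57, 6.91 and 5.13 CPM in TFs. Every transplanted library was above its controls. The log2 fold changes were 1.39 ± 0.34, 1.62 ± 0.34 (1.36 without KFs replicate 3) and 1.02 ± 0.33 (SE, edgeR adjusted p = 0.00258, 0.000989 and 0.0244), and the call in TFs was lost without TFc replicate 3 (0.76) or TFs replicate 2 (0.89). Psme3, the nuclear PA28 gamma, fell in HFs (-0.56) and TFs (-0.38), with -0.02 in KFs (-0.09 without KFs replicate 3), and Psme4, the activator PA200, rose in KFs (0.28) but was not called without KFs replicate 3 (0.17, adjusted p = 0.125), with -0.10 in HFs and 0.11 in TFs. Psma8, an alpha subunit known from male germ cells, had 23 counts or fewer in every library and was not called in any transplant comparison.

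Leukocytes are known to make these inducible subunits abundantly. The 10 leukocyte and macrophage markers summed to 411.7 to 437 CPM in KFc against 37.8 to 149.7 CPM in KFs, and to 175 to 206.6 CPM in TFc and 41.5 to 47.1 CPM in TFs. In heart cells the sums were 87.5 to 101.0 CPM in HFc and 87.9 to 156.5 CPM in HFs, which overlapped. The 10 lymphocyte markers summed to 0.237 to 0.344 CPM in HFc and 0.902 to 1.97 CPM in HFs, 0.186 to 0.465 CPM in KFc against 0.417 to 1.25 CPM in KFs, and 0.297 to 0.589 CPM in TFc and 1.27 to 1.71 CPM in TFs. Of these 10, 8 had no count in HFc, 7 in KFc and 7 in TFc, against 2 in HFs (Cd3e and Ms4a1), 2 in KFs (Ms4a1 and Prf1) and 1 in TFs (Nkg7). Most of those detected stayed at or under the floor of 3 counts. Above it in any library were 2 of the 10 in HFc, HFs, KFc, KFs and TFc alike, and 3 in TFs. Cd8a, a T cell coreceptor, was on average at 0.173 CPM in HFc and 1.09 CPM in HFs, 0.231 CPM in KFc against 0.395 CPM in KFs, and 0.280 CPM in TFc and 0.852 CPM in TFs. The sums of the lymphocyte markers were thus higher in HFs and TFs than in their controls and overlapped between KFs and KFc, and the part of these markers in the results was not tested.

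The 3 constitutive catalytic subunits fell in HFs and TFs, and Psmb5 also in KFs. Psmb5 encodes the chymotrypsin-like site and was at 37.7, 34.5 and 32.6 CPM in HFc and 13.1, 11.1 and 10.8 CPM in HFs. It was at 31.4, 30.7 and 30.04 CPM in KFc against 15.97, 26.8 and 19.8 CPM in KFs, and at 23.8, 26.8 and 25.2 CPM in TFc and 15.6, 16.2 and 13.1 CPM in TFs. The groups did not overlap in any pair. Psmb5 fell by 1.59 ± 0.15 on the log2 scale in HFs, by 0.56 ± 0.15 in KFs (0.56 also without KFs replicate 3) and by 0.76 ± 0.15 in TFs (SE, edgeR adjusted p = 5.74e-07, 0.00542 and 0.000976). It shares 40.0% of its 75-base windows with other annotated genes, of which the counted one had no count in any library.

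Psmb6, the caspase-like site, was at 51.95, 55.3 and 55.4 CPM in HFc and 32.3, 28.6 and 26.7 CPM in HFs. In the other groups it was at 51.6, 47.05 and 54.8 CPM in KFc against 37.4, 54.5 and 34.3 CPM in KFs, and 43.1, 45.5 and 47.05 CPM in TFc against 38.6, 34.3 and 32.1 CPM in TFs. KFs overlapped KFc through replicate 2, and the other pairs did not overlap. The log2 fold change was -0.89 ± 0.14 in HFs, -0.28 ± 0.14 in KFs and -0.37 ± 0.14 in TFs (SE, edgeR adjusted p = 6.33e-05, 0.104 and 0.0453). The last stood at the threshold and lost its call in 14 of the 18 fits that left out 1 library, with changes between -0.45 and -0.31.

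Psmb7, the trypsin-like site, was at 41.3, 41.1 and 43.9 CPM in HFc and 23.3, 22.8 and 20.1 CPM in HFs. It was at 29.4, 37.4 and 36.7 CPM in KFc against 26.9, 35.7 and 25.3 CPM in KFs, and 26.03, 26.7 and 25.5 CPM in TFc against 22.8, 19.4 and 17.01 CPM in TFs. Here too only the kidney pair overlapped. The log2 fold change was -0.93 ± 0.14, -0.24 ± 0.13 and -0.40 ± 0.14 in the same order (SE, edgeR adjusted p = 3.29e-05, 0.159 and 0.029). The call in TFs was lost without TFc replicate 1 (-0.41), TFc replicate 2 (-0.40), TFs replicate 2 (-0.39) or TFs replicate 3 (-0.31). In KFs the changes of Psmb6 and Psmb7 were -0.56 and -0.45 without KFs replicate 2, and were then called, and -0.20 and -0.18 without KFs replicate 3.

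**Figure D4:**
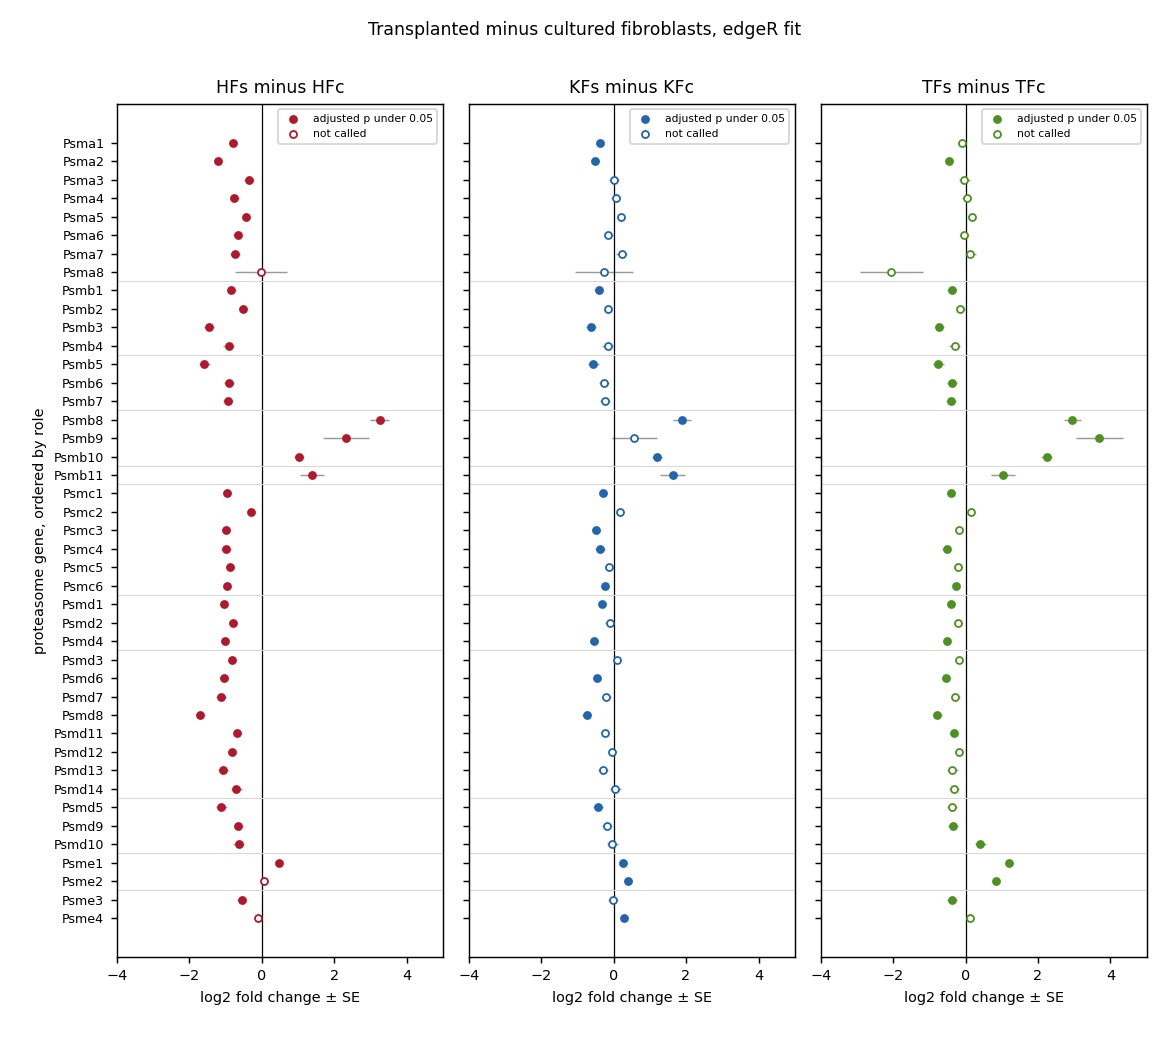
Log2 fold change (x axis, with its SE) of the 43 proteasome genes (y axis, by role) in HFs against HFc, KFs against KFc and TFs against TFc; filled points passed an adjusted p of 0.05. In HFs the 20S and 19S subunits other than Psma8 lie between -1.70 and -0.29, whereas in KFs and TFs they lie between -0.78 and 0.22.

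Each inducible subunit was then set against the subunit it replaces, as the log2 ratio of their counts in a library, which needs no scaling between libraries. Psmb8 over Psmb5 was -3.77, -4.99 and -3.57 in HFc and 0.67, 0.85 and 0.99 in HFs, -2.64, -2.82 and -2.78 in KFc against 0.43, -0.86 and -0.40 in KFs, and -1.83, -1.92 and -1.66 in TFc and 2.02, 1.87 and 1.82 in TFs. All 9 transplanted libraries lay above all controls of their cell type. The mean ratio rose by 4.95 in heart, 2.47 in kidney (2.53 without KFs replicate 3) and 3.70 in tail cells, a factor of 30.8, 5.52 and 13.03. Within a cell type an exact permutation test of 3 against 3 cannot go below p = 0.1, the value found in each. Over the 3 cell types, with labels exchanged within each (8000 arrangements, two-sided), the mean rise of 3.70 gave an exact permutation p = 0.00025, the smallest possible under this exchange, and 0.000375 after Benjamini-Hochberg adjustment over the 3 pairs. For all 3 ratios the exchange treated the libraries of a cell type as unpaired. If same-numbered transplanted and cultured libraries are paired, fewer arrangements are allowed and the smallest possible p is larger. A paired version was not run.

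For Psmb10 over Psmb7 the ratio was -3.01, -2.94 and -3.16 in HFc and -1.28, -1.07 and -0.90 in HFs, -2.73, -3.38 and -3.04 in KFc against -1.26, -2.02 and -1.55 in KFs, and -2.54, -2.41 and -2.30 in TFc and -0.13, 0.45 and 0.36 in TFs. Again all 9 transplanted libraries were above their controls. The ratio rose by 1.96, 1.44 and 2.64 in heart, kidney (1.41 without KFs replicate 3) and tail cells, and by 2.01 on average (exact permutation p = 0.00025, adjusted 0.000375). For Psmb9 over Psmb6 it was -6.39, -6.35 and -7.14 in HFc and -3.45, -3.53 and -3.08 in HFs, -7.43, -5.31 and -6.88 in KFc against -4.99, -6.73 and -4.79 in KFs, and -7.70, -5.14 and -8.07 in TFc and -2.40, -1.94 and -2.58 in TFs. In heart and tail cells the groups were apart, by 3.27 and 4.66, whereas in kidney cells they overlapped, with a difference of 1.04 (exact permutation p = 0.2, and a difference of 0.68 without KFs replicate 3). The average over the 3 cell types was 2.99 (exact permutation p = 0.0005, adjusted 0.0005).

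**Figure D5:**
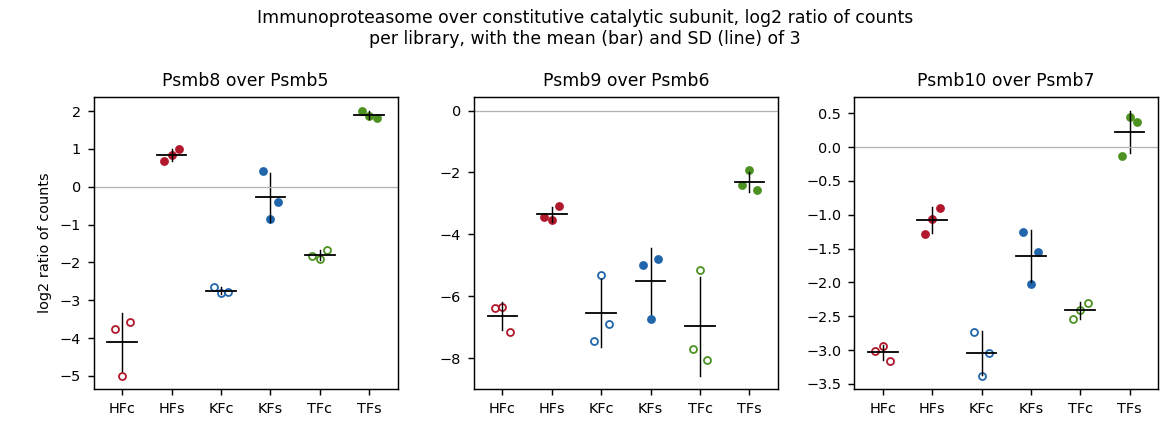
Log2 ratio of the counts of an immunoproteasome gene to those of the constitutive gene it replaces (y axis), for Psmb8 over Psmb5, Psmb9 over Psmb6 and Psmb10 over Psmb7, per library in the 6 groups (x axis). Points are libraries (open, cultured; filled, transplanted), bars the mean and lines the SD of 3, and the gray line marks equal counts. Psmb8 has more counts than Psmb5, with no allowance for transcript length, in all 3 HFs and all 3 TFs libraries.

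Per length of the longest coding transcript, Psmb8 stood at 1.73 to 4.66% of Psmb5 in HFc, 7.84 to 8.85% in KFc and 14.6 to 17.5% in TFc, and after transplantation at 87.9 to 109.9%, 30.4 to 74.2% and 194.7 to 223.5%. Psmb10 was at 8.502 to 17.97% of Psmb7 in the cultured libraries and at 36.5 to 47.5% in HFs, 21.8 to 36.9% in KFs and 80.6 to 120.7% in TFs. Psmb9 stayed below Psmb6 throughout, at 5.09 to 6.96% in HFs and 9.90 to 15.4% in TFs. These levels depend on the transcript model: with the merged exons as length, Psmb8 in TFs came to 93.8 to 107.6% of Psmb5, and with the median coding transcript to 319.2 to 366.5%. In HFs the same 2 lengths gave 42.3 to 52.9% and 144.1 to 180.1%.

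Beyond the catalytic subunits, the alpha and beta rings fell in HFs with 1 exception. Psma1 to Psma7, Psmb1, Psmb2, Psmb3 and Psmb4 were all lower than in HFc, with log2 changes from -1.45 (Psmb3) to -0.35 (Psma3). Psmb3 was at 39.9, 40.6 and 37.7 CPM in HFc and 13.4, 14.7 and 15.1 CPM in HFs, 32.03, 33.2 and 29.9 CPM in KFc against 17.7, 25.6 and 18.3 CPM in KFs, and 27.3, 26.6 and 22.9 CPM in TFc and 17.5, 16.04 and 13.1 CPM in TFs. Psma2 was at 60.7, 60.04 and 63.8 CPM in HFc and 28.7, 25.96 and 24.9 CPM in HFs, 49.97, 51.03 and 47.1 CPM in KFc against 31.7, 40.6 and 31.2 CPM in KFs, and 39.9, 45.4 and 41.6 CPM in TFc and 32.5, 30.7 and 28.3 CPM in TFs. These structural subunits were lower in every transplanted library than in every control of the same cell type. Psmb3 changed by -1.45, -0.62 and -0.72 and Psma2 by -1.22, -0.52 and -0.47 in HFs, KFs and TFs (log2, edgeR adjusted p at most 0.00173 for these 6 values), and without KFs replicate 3 the values in KFs were -0.59 and -0.49. In KFs and TFs, Psma3 to Psma7 were not called, at -0.15 to 0.22, nor in KFs without KFs replicate 3, at -0.15 to 0.31. Of these rings, 33.1% of the windows of Psmb3, 39.8% of Psma5 and 21.3% of Psma3 are shared with other annotated genes, which had 0 counts for Psmb3, at most 0.439% of the member's counts for Psma5 and 10.2 to 54.6% for Psma3, so the values of Psma3 are uncertain.

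The 19S particle fell in HFs without exception, and its lid held the largest fall of the family. All 6 ATPases, all 3 further base subunits and all 8 lid subunits were lower than in HFc. In KFs 4 ATPases, 2 base subunits and 2 lid subunits fell (4, 2 and 3 without KFs replicate 3), and in TFs 3, 2 and 3. Of all genes tested, 28.4% were called lower in HFs, 22.7% in KFs and 20.2% in TFs. The 2 of 8 lid subunits called in KFs were thus near the share of all genes. Psmd8, a small lid subunit, was at 204, 203 and 201 CPM in HFc and 68.00, 60.3 and 58.7 CPM in HFs. It was at 152, 149 and 145 CPM in KFc against 69.1, 101 and 95.3 CPM in KFs, and at 86.8, 92.5 and 94.6 CPM in TFc and 60.6, 51.03 and 48.3 CPM in TFs. It had the most negative change among the 20S and 19S subunits other than Psma8 in each cell type, -1.70 ± 0.12 in HFs, -0.75 ± 0.12 in KFs (-0.85 without KFs replicate 3) and -0.78 ± 0.12 in TFs (SE, edgeR adjusted p = 2.99e-08, 9.02e-05 and 0.000116). Cultured cells already differed in it, since HFc held more than the other cultured groups and TFc the least.

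Among the other lid subunits, Psmd6 and Psmd7, the latter the partner of the deubiquitinase Psmd14, changed by -1.06 and -1.12 in HFs, -0.45 and -0.21 in KFs and -0.53 and -0.29 in TFs. Psmd6 passed the test in all 3 (edgeR adjusted p = 8.62e-07, 0.00215 and 0.00103) and Psmd7 in HFs (3.28e-06, 0.188 and 0.0864), although without KFs replicate 2 its change in KFs was -0.47 and was called. Without KFs replicate 3 the changes of Psmd6 and Psmd7 in KFs were -0.40, which was called, and -0.12. In the base, the ubiquitin receptor Psmd4 fell from 146, 157 and 159.8 CPM in HFc to 78.8, 75.5 and 73.1 CPM in HFs, from 156, 148 and 146 CPM in KFc to 86.6, 119 and 102 CPM in KFs and from 117, 116 and 109 CPM in TFc to 83.96, 81.01 and 76.98 CPM in TFs. Its groups did not overlap in any pair, with log2 changes of -1.03, -0.55 and -0.50 (edgeR adjusted p = 3.11e-07, 0.000156 and 0.000573), and -0.59 in KFs without KFs replicate 3. Among the ATPases, which unfold the substrate, Psmc3 changed by -0.999, -0.49 and -0.19, the last not called, and Psmc4 by -0.99, -0.38 and -0.52. The call of Psmc4 in KFs was lost without KFc replicate 1 (-0.37), KFc replicate 3 (-0.37) or KFs replicate 1 (-0.24). Without KFs replicate 3 the changes of Psmc3 and Psmc4 in KFs were -0.49 and -0.36, both called. Psmc2 fell least of the 20S and 19S subunits called in HFs, with a log2 change of -0.29, and its changes of 0.19 in KFs (0.08 without KFs replicate 3) and 0.14 in TFs were not called.

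The chaperones of the base, which hold its ATPases during assembly and leave the finished particle, did not move alike. Psmd10, also called gankyrin, was at 17.2, 13.6 and 15.3 CPM in HFc and 8.54, 9.83 and 11.2 CPM in HFs, 14.3, 12.7 and 13.5 CPM in KFc against 9.94, 14.5 and 14.8 CPM in KFs, and 11.8, 9.93 and 10.2 CPM in TFc and 14.7, 14.9 and 12.7 CPM in TFs. It was lower in every HFs library than in HFc and higher in every TFs library than in TFc. The changes were -0.64 ± 0.15, -0.04 ± 0.15 and 0.40 ± 0.15 (SE, edgeR adjusted p = 0.0024, 0.83 and 0.0489), and the rise in TFs was at the threshold, lost in 14 of 18 fits without 1 library, with changes of 0.34 to 0.48. In KFs its direction turned to 0.12 without KFs replicate 1 and to 0.02 with scaling by library size alone, and it was -0.18 without KFs replicate 3. Psmd5 fell in HFs (-1.12) and KFs (-0.44, lost without KFc replicate 2 at -0.40 or KFs replicate 1 at -0.24, and -0.65 without KFs replicate 3), with -0.38 in TFs (edgeR adjusted p = 0.0506). Psmd9 changed by -0.65, -0.18 (-0.11 without KFs replicate 3) and -0.34 in HFs, KFs and TFs, called in HFs and TFs.

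Whether the cell types responded differently was tested as the difference between their log2 fold changes. The fall of the constitutive particle was deeper in heart cells. Against tail cells 27 of the 43 genes responded differently, all with a lower value in heart, where 12.7% of all genes were called in that direction. Not all 27 belong to the constitutive particle: Psmb10, Psme1 and Psme2 were not called lower in HFs, and Psmd5 and Psmd10 are assembly chaperones. Against kidney cells 31 were lower in heart and 1, Psmb8, was higher, where 15.5% and 10.7% of all genes were called. The 31 include the chaperone Psmd5 and the activators Psme3 and Psme4. Between kidney and tail cells 3 genes differed, Psmb9, Psmb10 and Psme1, all lower in kidney, where 6.07% of all genes were called. This count of 3 was near the share of all genes, and there were 5 without KFs replicate 1 and 4, with Psmb8 added, without KFs replicate 3. For Psmb5 the response in heart was 0.83 ± 0.21 below that in tail and 1.03 ± 0.21 below that in kidney (log2 difference and SE, edgeR adjusted p = 0.0111 and 0.00231), and the latter difference was -1.01 without KFs replicate 3. The 32 genes that differed between heart and kidney were 21 without HFs replicate 2, 19 without HFs replicate 3, 20 without KFs replicate 2 and 30 without KFs replicate 3, where Psma1, Psmd5, Psmd11, Psme3 and Psme4 were lost and Psmb1, Psmb2 and Psmd9 were added.

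Among the inducible subunits, Psmb10 and Psme1 rose most in tail cells. The rise of Psmb10 was smaller than in tail by 1.22 ± 0.20 in heart and by 1.04 ± 0.20 in kidney, and that of Psme1 by 0.71 ± 0.12 and 0.95 ± 0.12 (log2 difference and SE, edgeR adjusted p = 0.000538, 0.00372, 0.000605 and 0.000159). Psmb8 rose more in heart than in kidney, by 1.36 ± 0.35 (adjusted p = 0.00899), and its difference between heart and tail, 0.30 ± 0.34, was not called (adjusted p = 0.565). Psmb9 rose less in kidney than in tail, by 3.12 ± 0.89 (adjusted p = 0.0341), a call lost without KFc replicate 2, KFs replicate 2, TFc replicate 1 or 3, or TFs replicate 1 or 2, with differences of -3.11 to -2.36. Without KFs replicate 3 the differences between kidney and tail were -1.001 for Psmb10, -0.97 for Psme1 and -3.37 for Psmb9, and that between heart and kidney was 1.35 for Psmb8, all called. Psme2 rose less in heart than in tail, by 0.77 ± 0.16 (adjusted p = 0.00259), and by 1.21 with the counts of Psme2b added.

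Cell types were also compared within each condition. In culture, heart cells had the highest sum over the 20S and 19S subunits, as given above. HFc was tested against TFc and not against KFc. In HFc, 29 of the 43 genes were higher and 2 lower than in TFc, where 20.9% and 21.0% of all genes were called. The 2 lower were Psmb8 (-1.74) and Psme1 (-0.49), and the largest difference among the others was that of Psmd8 (1.15). In KFc, 13 were higher than in TFc and 1, Psmb8 (-0.66), was lower, where 17.8% and 18.5% were called. With scaling by library size alone these counts were 14 and 2 in HFc and 7 and 3 in KFc, and the median of all genes moved to -0.16 and -0.11. The 14 genes called in KFc were 6 or 7 without any one of KFc replicates 1 to 3 or TFc replicate 1, 9 without TFc replicate 3 and 22 without KFs replicate 3.

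The transplanted groups were compared in the same way. In HFs, 9 genes were lower than in TFs and 1, Psma8, was higher, where 12.7% and 10.3% of all genes were called. Psma8 rested on 12 to 19 counts in HFs and 0 to 3 in TFs. Its level was 0.338 to 0.838 CPM in HFc, 0.529 to 0.721 CPM in HFs and at most 0.534 CPM in the other groups. It thus passed the filter on low counts mostly through heart libraries, and its call as higher in HFs carries no weight. The 9 were Psma5, Psma6, Psmb8, Psmb10, Psmc3, Psmd9, Psmd10, Psme1 and Psme2. The 10 calls were 5 without HFs replicate 2, 4 without TFs replicate 1 and 6 without TFs replicate 2, and with scaling by library size alone they were 29, with the median of all genes at -0.25. In KFs, 20 genes were higher than in TFs and 5, all of the inducible set (Psmb8, Psmb9, Psmb10, Psme1 and Psme2), were lower, where 15.3% and 13.8% were called. These 25 were 30 without KFs replicate 3, with the same 5 lower, 14 without KFs replicate 2, 15 without TFs replicate 2 and 13 without TFs replicate 3, and a fit of the KFs and TFs libraries alone called 4.

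The 20S and 19S subunits are present in fixed ratios in the particle, yet their RNA levels per length spread widely. In CPM per kilobase of the longest coding transcript, leaving out Psma8, the highest was Psma4 and the lowest Psma2 in all 6 groups with this length. Psma4 was at 115.7 ± 4.00 in HFc and 68.5 ± 4.71 in HFs (SD, n = 3), and Psma2 at 21.1 ± 0.683 and 9.10 ± 0.674. The highest was thus 5.47 times the lowest in HFc and 7.53 times in HFs. The median over the 31 genes was 42.3 CPM per kilobase in HFc and 24.0 in HFs, 37.8 in KFc and 34.3 in KFs, and 31.5 in TFc and 26.9 in TFs. The order of the genes depended on the transcript model. With the median coding transcript as length the highest was Psmd2 and the lowest Psma2 in all 6 groups, 12.1 to 17.3 times apart. With the merged exons the highest was Psmd8 in HFc, Psma4 in HFs and TFs, Psmc1 in KFc and KFs and Psmd7 in TFc, the lowest was Psmb3 in HFs and Psmb7 in the other 5 groups, and they were 5.38 to 7.05 times apart.

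Genes that work with the proteasome were read from lists made by function. Their counts stand beside the share of all genes tested, which was 28.4% lower and 28.0% higher in HFs, 22.7% and 26.1% in KFs and 20.2% and 18.6% in TFs. The 19S subunits outside the symbol rule, Adrm1, a ubiquitin receptor, and Sem1, fell in all 3 transplant comparisons, by 1.04, 0.64 and 0.73 and by 0.95, 0.52 and 0.58 on the log2 scale in HFs, KFs and TFs. Of 5 genes for assembly of the 20S core, 3 fell in HFs, and in KFs and TFs 1 fell and 1 rose, so that in KFs and TFs both shares, 20.0% each, were near those of all genes. Pomp, which is built into the nascent beta ring, fell in each (-1.10, -0.66 and -0.55), while the chaperone Psmg1 rose in KFs (0.63) and Psmg4 in TFs (0.43). Of the 6 ubiquitin shuttles, 5, 2 and 4 fell (83.3%, 33.3% and 66.7%) and 1 rose in each (16.7%, no more than among all genes). The one that rose was the same gene, Ddi2, the protease that releases the product of Nfe2l1 (0.69, 0.62 and 0.29). Nfe2l1 itself fell by 0.63, 0.81 and 0.22. All 3 genes of the p97 complex, Vcp, Nploc4 and Ufd1, which pulls substrates out of complexes and membranes, fell in all 3, between -1.08 and -0.36. These genes kept their calls in KFs without KFs replicate 3, with changes of -0.73 for Adrm1, -0.40 for Sem1, -0.57 for Pomp, 0.83 for Psmg1, 0.53 for Ddi2, -0.91 for Nfe2l1, -0.37 for Vcp, -0.73 for Nploc4 and -0.54 for Ufd1.

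Genes of peptide loading and of the interferon-gamma response were read in the same way. Of 9 peptide loading genes, 5 rose and 3 fell in HFs (55.6% and 33.3%, against 28.0% and 28.4% of all genes), 2 rose in KFs (22.2%, against 26.1%) and 5 rose in TFs (55.6%, against 18.6%). The share that fell in HFs and the share that rose in KFs were thus near those of all genes. Tap1 and Tap2, which carry peptides into the endoplasmic reticulum, changed by 0.58 and 0.85 in HFs and 1.36 and 1.02 in TFs, all called, with 0.14 and 0.00 in KFs. B2m, the light chain of MHC class I, changed by 0.52 in HFs and 2.29 in TFs, also called, with 0.02 in KFs. Those that rose in all 3 were the loading factor Tapbp (1.49, 0.82 and 1.71) and the trimming peptidase Erap1 (1.40, 1.42 and 1.87). The values in KFs without KFs replicate 3 were 0.01 for Tap1, -0.01 for Tap2, -0.04 for B2m, 0.72 for Tapbp and 1.35 for Erap1, the last 2 called, and Pdia3, a chaperone of loading, was called as well (0.54, against 0.37 with it). The difference between kidney and tail was itself called for Tap1 (-1.22), Tap2 (-1.02), Tapbp (-0.89) and B2m (-2.27), and without KFs replicate 3 these were -1.33, -1.02, -0.98 and -2.31, all called.

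Of 9 regulators of this response, 4 rose and 1 fell in HFs, 3 rose and 2 fell in KFs and 7 rose in TFs. These were 44.4% and 11.1% in HFs, 33.3% and 22.2% in KFs and 77.8% in TFs, so that the shares in KFs were near those of all genes. Irf1, a factor known to act on Psmb8 and Psmb9, rose by 2.49, 2.48 and 2.41 in HFs, KFs and TFs, and the kinase Jak2 by 1.63, 1.59 and 1.58. Nlrc5, a transactivator of MHC class I genes, rose in HFs (1.39) and TFs (2.97), with 1.06 in KFs. Irf8 rose in HFs (1.29) and TFs (1.01) and fell in KFs (-1.40). Irf9 rose in KFs (0.61) and TFs (1.32), with 0.41 in HFs. Of the receptor chains, Ifngr1 rose in TFs (1.12), with 0.15 in HFs and 0.26 in KFs, and Ifngr2 fell in HFs (-0.48) and KFs (-0.36), with 0.17 in TFs. Irf2 rose in TFs (0.40), with 0.13 in HFs and -0.20 in KFs, and the kinase Jak1 was not called (-0.10, -0.23 and 0.01). With KFs replicate 3 left out, the values in KFs were 2.61 for Irf1, 1.61 for Jak2, -1.23 for Irf8 and -0.44 for Ifngr2, which kept their calls, 0.37 for Irf9, which lost it, and -0.15 for Nlrc5, -0.24 for Ifngr1, -0.35 for Irf2 and -0.16 for Jak1, which were not called. Ifng itself was at or under the floor of 3 counts in every library, with no count in HFc, KFc and TFc, at most 2 in HFs and at most 1 in KFs and TFs.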

How the data were processed

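Expected counts per gene, deposited by the authors as whole numbers for 38924 Ensembl genes in 18 libraries, were used as they stood. Per the study's methods, the authors trimmed stranded 75-base single-end reads and quantified them on GRCm38 with RSEM and Bowtie2 under the reverse-strand setting, while the submitters' processing notes name mm9. The methods give a stranded total RNA kit for cells isolated from the kidney capsule and do not name the kit of the cultured controls. RSEM divides reads shared between similar genes, which touches the members with near copies.

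Symbols came from GENCODE M21, which matched 37607 identifiers. All 18 libraries were fitted together with edgeR 4.0.16 in R 4.3.3 (filterByExpr, TMM scaling, quasi-likelihood test), without a replicate block, over 16577 genes, and Benjamini-Hochberg adjusted p-values under 0.05 were called. CPM were scaled to the library total times its TMM factor. Ratios were tested by exact permutation over libraries (scipy 1.17.1). In simulated HFs and HFc counts of 16216 genes, 41 of 50 genes raised 2-fold and 36 of 50 lowered 2-fold were recovered. At 1.5-fold 17 of 50 were recovered in either direction, and there were 9 false calls. Library totals were 17927838 to 32245168, and a count of 3 was taken as the floor.

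Full values were given for the catalytic and PA28 genes and, in each transplant comparison, for up to 5 further members with the largest called rise and fall among those whose groups did not overlap. Some further members were named after their values were seen. The members and lists were chosen with earlier results of these data known. Alternatives were DESeq2 1.42.0, its size factors, library size alone, other filters, a replicate block, fits of only the groups compared, a fold limit and leaving out each library. Adding the counts of genes that share 75-base windows was chosen after seeing the data. A few listed genes and 1 motif are not reported here.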

Additional observations from a re-analysis of the deposited data

Results flagged for a closer look

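The transplant response, that is the log2 fold change of transplanted over cultured cells, differed between cell types for 27 members between heart and tail, 3 between kidney and tail and 32 between heart and kidney (edgeR quasi-likelihood test of the difference, Benjamini-Hochberg adjusted p under 0.05). Of all 16577 genes tested, 12.7% had a lower response in heart than in tail and 6.07% a lower one in kidney than in tail. Between heart and kidney 15.5% were lower and 10.7% higher in heart. The 3 of 43 members between kidney and tail were thus near the share of all genes. Between heart and tail the response in heart was lower for Psmb10 (-1.22), Psme1 (-0.71), Psme2 (-0.77), Psmb5 (-0.83), Psma2 (-0.74), Psmb3 (-0.73), Psmc3 (-0.81), Psmd4 (-0.53), Psmd5 (-0.74), Psmd6 (-0.53), Psmd7 (-0.84), Psmd8 (-0.93) and Psmd10 (-1.04). The calls of Psmb3 (-0.62 without HFs replicate 1), Psmd5 (-0.65 without TFc replicate 3) and Psmd6 (-0.46, -0.45 and -0.50 without HFs replicate 1, HFs replicate 2 or TFc replicate 3) depended on single libraries. Between kidney and tail the response in kidney was lower for Psmb9 (-3.12), Psmb10 (-1.04) and Psme1 (-0.95).

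Between heart and kidney Psmb8 had the higher response in heart (1.36). The response in heart was lower for Psmb5 (-1.03), Psmb6 (-0.61), Psmb7 (-0.70), Psma2 (-0.70), Psmb3 (-0.83), Psmc3 (-0.51), Psmc4 (-0.61), Psmd4 (-0.48), Psmd5 (-0.68), Psmd6 (-0.61), Psmd7 (-0.91) and Psmd8 (-0.95). Of 18 fits that each left out 1 library, the call was lost in 10 for Psmb6, 8 for Psmc3, 7 for Psmd5, 5 for Psmc4, 3 for Psmd4 and 2 for Psmb7, and leaving out KFs replicate 2 lost each of these 6, at -0.32, -0.30, -0.57, -0.33, -0.29 and -0.47.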

How the results depend on the processing

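Of the values recomputed for single named members, 2111 stayed on their side of the threshold, 117 lost and 13 gained a call, and 3 changed sign: Psme2 in HFs (-0.37, adjusted p = 0.00680) with the counts of Psme2b added, and Psmd10 in KFs, not called, with library size alone (0.018) or without KFs replicate 1 (leaving out 1 library gave -0.18 to 0.12). A log2 fold limit of 1 left 10 members lower in HFs, 3 higher and 0 lower in KFs, 0 lower in TFs, 2 that differed between HFc and TFc, 0 between KFc and TFc, 4 between HFs and TFs, 4 between KFs and TFs, and 2 whose response differed between heart and tail and 2 between heart and kidney. Fits of only the groups compared called 3 higher and 6 lower in KFs, 33 between KFc and TFc, 4 between KFs and TFs and 19 responses between heart and kidney. Library size alone called 16 members between HFc and TFc and 29 between HFs and TFs. DESeq2 called 22 between KFc and TFc and 5 responses between kidney and tail. The cause of these shifts was not tested. Leaving out 1 library gave 9 to 25 lower in KFs, 8 to 23 lower in TFs, 6 to 22 between KFc and TFc, 4 to 13 between HFs and TFs, 13 to 30 between KFs and TFs, and 2 to 5 and 19 to 33 responses between kidney and tail and between heart and kidney. Same-numbered libraries showed little correlation of their deviations from group means (mean -0.06 to 0.02), which cannot show that they were unpaired. The titles number transplanted and cultured libraries alike, and the paper states that cells left over from transplantation were replated as controls. With the replicate block 5 were higher and 34 lower in HFs, 6 and 14 in KFs and 6 and 14 in TFs. At these depths the self-test recovered 17 of 50 genes raised 1.5-fold and 17 of 50 lowered by that factor, so changes of that size can be missed. The share missed in these data was not measured, since the self-test changed far fewer genes than were called here. With fewer changed genes the adjusted threshold is stricter.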
